A study of Homo sapiens with 8 samples.

Results

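The matrix metalloproteinases MMP1, MMP2, MMP3, MMP7, MMP9, MMP10, MMP12, MMP13 and MMP14 and their inhibitor TIMP1 were followed across the transcriptomes of oral cancer cells transfected with 3 different miRNAs. The 10 genes were taken by their names in the annotation of the array, which holds 43317 gene names, and each is represented by 1 probe. SAS, a cell line established from a human squamous carcinoma of the tongue, was used, and the labels describe it as grown with puromycin. The cells received 25 nM of a single miRNA, either miR-629-3p or miR-210-3p or miR-874-3p, or of a negative control miRNA (NC), RNA was extracted 48 h later according to the labels, and 100 ng of it was hybridised in 1 colour to an Agilent whole-transcriptome array. The 4 groups held 2 arrays each. The study's text names the cells SAS/GFP, that is SAS cells carrying a GFP vector, and gives a shorter time to extraction, so the exact cells and time behind the arrays are not settled. The groups represent a single cell line under transient transfection, and neither source says whether the 2 arrays of a group came from separate cultures, so that p-values measure only the spread between these arrays, which may be technical.

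Matrix metalloproteinases are zinc-dependent endopeptidases that are made as inactive proenzymes and are secreted or anchored at the cell surface. Once activated, they cut collagens, other matrix proteins and each other's propeptides. They are inhibited by the tissue inhibitors of metalloproteinases (TIMPs), and their genes respond to AP-1 and ETS transcription factors. In oral squamous carcinoma they are studied for their part in invasion. The question here is which of these genes differed between cells given each of the miRNAs that the study had linked to cisplatin resistance and cells given NC.

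The mature miRNAs are shown because they are what distinguishes the transfected groups. They are the RefSeq entries (GRCh38.p14, all on the minus strand), in which capitals mark the seed (bases 2 to 8), and miR-629-3p lies at chr15:70079387-70079408, miR-210-3p at chr11:568112-568133 and miR-874-3p at chr5:137647582-137647603.
miR-629-3p: gUUCUCCCaacguaagcccagc
miR-210-3p: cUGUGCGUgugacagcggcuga
miR-874-3p: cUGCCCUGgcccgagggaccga
The 3 seeds differ, so the groups do not share a seed. For the strand of each probe as the array annotation gives it, the letters that pair with a seed were searched in the 10 probes of these genes and in all 58201 gene probes. The site of miR-629-3p, GGGAGAA, was in 0 of the 10 probes and in 0.747% of all. The site of miR-210-3p, ACGCACA, was in 0 of the 10 and in 0.131% of all. The site of miR-874-3p, CAGGGCA, was in 0 of the 10 and in 0.387% of all. A probe covers a short stretch of a transcript, so this says nothing about the rest of each mRNA.

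All values are log2 signals relative to the 75th percentile of the array, and they compare arrays for 1 gene, not genes with each other. No spot was saturated, and 42.2% to 49.8% of probes were well above background, a flag of the scanner software. The dimmest detected signal of an array lay between -3.74 and -3.39 in the groups of miR-629-3p and miR-210-3p, which filled row 1 of the slide. It lay between -3.21 and -2.82 in the groups of miR-874-3p and NC, which filled row 2 of the same slide, so that for a contrast across the rows the slide row and the miRNA cannot be told apart, while miR-629-3p against miR-210-3p and miR-874-3p against NC lie within a row. All 8 squamous epithelial markers (KRT5, KRT14, KRT6A, KRT17, TP63, SFN, DSG3 and CDH1) were well above background on every array. The fibroblast markers COL1A2, COL3A1, DCN and LUM were so on none. The other 2 of that list, COL1A1 and PDGFRB, were so on every array of the 3 miRNAs, and with NC only PDGFRB was. The summed list of 6 stayed between 0.567 and 2.0 times the 75th percentile, compared with 253 to 489 times for the squamous list.

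Of the 10 genes, 8 passed the filter for testing (in 1 group or more, both arrays well above background) and 2, MMP10 and MMP7, did not. MMP1, MMP3, MMP12, MMP2, MMP9, MMP14 and TIMP1 were well above background on all 8 arrays. Across the 4 groups, 4 of the 8 genes differed at an adjusted p under 0.05 (limma F test with Benjamini-Hochberg adjustment over 21283 genes), which was also the case for 25.2% of all genes tested. These were MMP3 (adjusted p = 0.015), MMP1 (0.0152), MMP2 (0.0393) and MMP12 (0.0499). The other 4 were MMP13 (0.144), MMP9 (0.174), MMP14 (0.258) and TIMP1 (0.373). This count depended on which array was left out. It fell to 0 when either miR-210-3p array or replicate 1 of miR-629-3p was left out, to 1 without replicate 2 of miR-629-3p, and to 3 without any 1 of the remaining arrays.

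**Figure D1:**
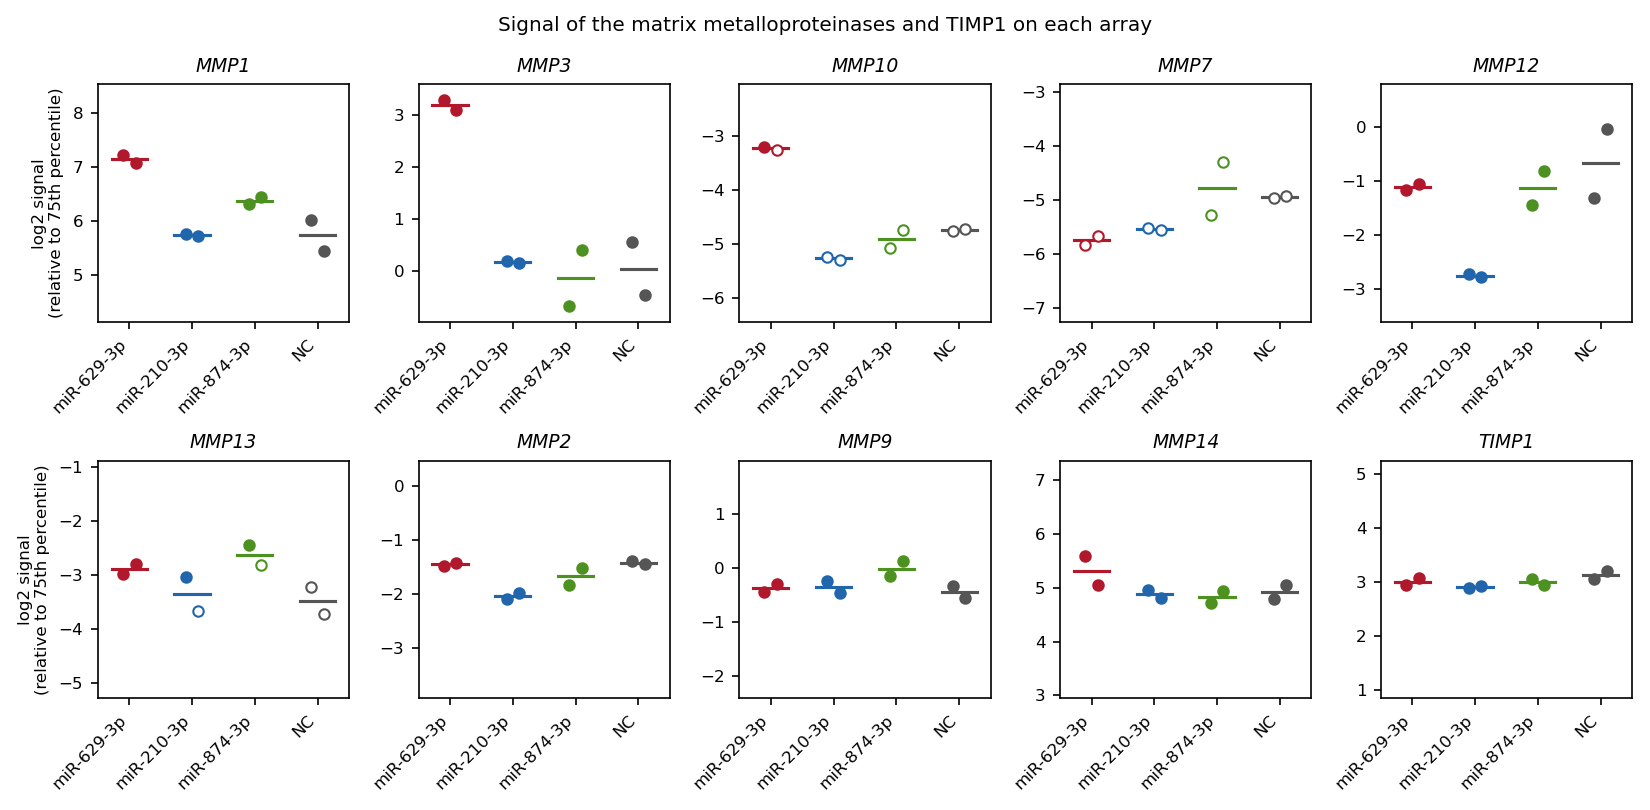
Log2 signal relative to the array's 75th percentile (vertical axis) of the 9 metalloproteinases and TIMP1 on each of the 8 arrays, by group (horizontal axis). Points are arrays, bars are group means, and open points are arrays on which the probe was not well above background. MMP1 and MMP3 were highest on both miR-629-3p arrays and MMP12 was lowest on both miR-210-3p arrays.

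After miR-629-3p, 2 of the 8 genes, MMP1 and MMP3, were called higher than after NC and 0 lower, at the study's threshold of a 2-fold or larger difference with an unadjusted p under 0.05. Of all genes tested, 5.26% were called in this comparison, 3.62% higher and 1.64% lower. Both genes also had an adjusted p under 0.05, as did 3.95% of all genes at 2-fold or more. The median log2 fold change of the 8 genes was 0.23, beside 0.02 for all genes tested. MMP13 counts in this median, although it passed the filter only through the miR-629-3p arrays and neither NC array measured it. Its positive value was therefore largely set by the filter. After miR-210-3p, 0 genes were called higher and 1, MMP12, lower (3.14% of all genes called, 1.15% lower), with a median of -0.02 beside 0.05. After miR-874-3p, none of the 8 passed the limma threshold (2.02% of all genes called), with a median of -0.11 beside -0.006. In that comparison 3 of the 8 genes had an unadjusted p under 0.05, namely MMP1, MMP13 and MMP9, all at less than 2-fold, as did 16.4% of all genes tested at any fold, and the methods' t-test called 0. All of these comparisons share the NC arrays. Marker levels also differed after miR-629-3p. Of all 21283 genes tested, 9961 had a negative fold change after miR-629-3p against NC, and 3565 had an adjusted p under 0.05 at any fold. Of the 8 squamous markers 7 had a negative fold change, with 4 at an adjusted p under 0.05 (KRT14, KRT17 and CDH1 lower, DSG3 higher), none at 2-fold, and a median of -0.46. Their summed signal was 363 and 372 times the 75th percentile, compared with 452 and 489 with NC. The 3 tested endothelial markers of 5 (PECAM1, CDH5 and VWF) all had positive values with a median of 0.90, and 1 had an adjusted p under 0.05 (limma). PECAM1 passed the filter only through the miR-629-3p arrays, so its positive sign was largely set by the filter. The endothelial list summed to 2.55 and 2.77, compared with 1.57 and 1.78 with NC. KDR and TEK were well above background on neither miR-629-3p array, and PECAM1 and TEK on neither NC array, by the probe used for each gene. The part of these in the MMP1 and MMP3 values was not tested.

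MMP1, the interstitial collagenase that cuts fibrillar collagens, was measured by a probe at chr11:102660697-102660756 (hg19) that is printed 10 times on the array. Its log2 signal was 7.21 and 7.07 after miR-629-3p, 5.75 and 5.72 after miR-210-3p, 6.31 and 6.44 after miR-874-3p, and 6.02 and 5.44 with NC. Both miR-629-3p arrays thus lay above every other array, and the miR-210-3p arrays lay between the NC arrays. MMP1 rose by a log2 fold change of 1.41 after miR-629-3p (SE 0.19, adjusted p = 0.0116, limma), which is 2.67-fold. The fold change after miR-210-3p was 0.01 (95% confidence interval -0.47 to 0.48). After miR-874-3p both arrays lay above both NC arrays, by 0.65 (SE 0.19), a difference with an unadjusted p of 0.0163 and an adjusted p of 0.200 (limma). Within slide row 1, MMP1 was 1.41 higher after miR-629-3p than after miR-210-3p (adjusted p = 0.00851), as large as the difference from NC. Against miR-874-3p it was 0.77 higher after miR-629-3p (adjusted p = 0.049), which is less than 2-fold.

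MMP13, collagenase 3, had a dim probe (chr11:102813773-102813832). The signal was -2.99 and -2.80 after miR-629-3p, -3.05 and -3.68 after miR-210-3p, -2.45 and -2.82 after miR-874-3p, and -3.23 and -3.73 with NC. It was well above background on both miR-629-3p arrays, on replicate 1 of miR-210-3p and of miR-874-3p, and on neither NC array. Its level with NC is therefore only a bound, and it passed the filter only through the miR-629-3p arrays. After miR-874-3p the bound on the difference from NC was 1.15-fold, which is not a firm minimum, because only 1 of 2 arrays measured MMP13. The fitted log2 value was 0.85 (unadjusted p = 0.0233, adjusted p = 0.228, limma). A brighter group is here set against the higher of the probe's own signal and the dimmest detected signal on each dim array. After miR-629-3p this bound gave no fold, because the group mean lay below what the NC arrays detect. MMP13 was called after miR-874-3p only when an array was left out, at 1.1 without NC replicate 1 and 1.03 without miR-874-3p replicate 2.

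MMP3, stromelysin 1, degrades proteoglycans and noncollagenous matrix proteins and can activate the proenzymes of collagenases and of MMP9. Its probe (chr11:102706694-102706753) read 3.30 and 3.10 after miR-629-3p, 0.19 and 0.15 after miR-210-3p, -0.68 and 0.42 after miR-874-3p, and 0.55 and -0.47 with NC. The miR-629-3p arrays stood apart from the other 6, which overlapped. MMP3 rose by 3.16 on the log2 scale after miR-629-3p (SE 0.45, adjusted p = 0.013, limma), or 8.91-fold. The fold changes after miR-210-3p (0.13, 95% confidence interval -0.99 to 1.25) and after miR-874-3p (-0.17, -1.29 to 0.95) did not pass the threshold, and these wide intervals go with NC arrays that differed 2.03-fold and miR-874-3p arrays that differed 2.13-fold. Within row 1, MMP3 was 3.03 higher after miR-629-3p than after miR-210-3p (adjusted p = 0.0104), and across the rows it was 3.33 higher than after miR-874-3p (adjusted p = 0.0106). With normexp background correction the rise over NC was 2.56.

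The rises of MMP1 and MMP3 after miR-629-3p were called in all 20 alternatives run for each, with log2 fold changes from 1.12 to 1.71 for MMP1 and from 2.56 to 3.67 for MMP3. Their adjusted p stayed under 0.05 in 17 of the 20 each. Without miR-629-3p replicate 1 or replicate 2 it was 0.0663 or 0.0559 for MMP1 and 0.0719 or 0.0633 for MMP3 (limma), and by the methods' t-test after adjustment 0.171 for MMP1 and 0.146 for MMP3.

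MMP10, stromelysin 2, read -3.19 and -3.26 after miR-629-3p (probe at chr11:102641405-102641464). On the other 6 arrays the signal lay between -5.29 and -4.72. It was well above background on miR-629-3p replicate 1 and on no other array, and so was not tested. The 2 readings after miR-629-3p lay above the other 6, but they were below the dimmest detected signal of the NC arrays (-2.84 and -2.82), so no fold against NC can be given. Against miR-210-3p, from arrays of the same slide row, the bound was 1.13-fold, which is not a firm minimum. Replicate 2 of miR-629-3p was not well above background, although it read 0.34 above the dimmest detected signal of its array. MMP7, matrilysin, an epithelial protease without the hemopexin domain, was well above background on no array, with readings from -5.82 to -4.29 (chr11:102394029-102394088). At this level readings carry a shift of their own: the 22301 probes detected on no array read lower than after NC by a median log2 difference of -0.75 after miR-629-3p, -0.55 after miR-210-3p and -0.15 after miR-874-3p.

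MMP12, the metalloelastase, best known from macrophages, went the other way from MMP1 and MMP3, and with a different miRNA. Its probe (chr11:102733594-102733653), whose annotation also lists the overlapping long non-coding transcripts of lnc-MMP3-1, read -1.16 and -1.05 after miR-629-3p, -2.73 and -2.77 after miR-210-3p, -1.43 and -0.82 after miR-874-3p, and -1.30 and -0.04 with NC. The miR-210-3p arrays were the lowest of the 8 and did not overlap with any group, while the other 3 groups overlapped. MMP12 fell by 2.08 on the log2 scale after miR-210-3p at the study's threshold (SE 0.42, unadjusted p = 0.00309), with an adjusted p of 0.0504 (limma). The miR-210-3p readings lay 0.66 and 0.65 above the dimmest detected signal of their arrays, and the NC arrays differed 2.40-fold. The fall was 2.71 without NC replicate 1 and 1.45 without NC replicate 2. It was 0.70 with normexp background correction, which ends the call, and the methods' t-test did not call it either. Within row 1, MMP12 was 1.64 higher after miR-629-3p than after miR-210-3p (adjusted p = 0.0436, limma). Against miR-874-3p the log2 difference after miR-210-3p was -1.62 (unadjusted p = 0.00947, adjusted p = 0.0705). With -0.44 for miR-629-3p and -0.46 for miR-874-3p, MMP12 was not called against NC. Without NC replicate 1 both passed the study's threshold, at -1.07 and -1.09. The summed signal of the squamous markers was also lowest after miR-210-3p (253 and 256 times the 75th percentile, compared with 452 and 489 with NC), with KRT5, KRT14 and KRT17 called lower at -1.25, -1.11 and -1.01. The leukocyte list, which includes macrophage markers (4 of 6 genes on the array, 2 of them well above background on all arrays), summed to 3.62 and 3.78 after miR-210-3p and to 3.21 and 3.94 with NC. The fibroblast list summed to 0.929 and 2.0 after miR-210-3p and to 0.567 and 0.571 with NC. COL1A1 was called higher by its fitted value (adjusted p = 0.0606, limma). The bound, at least 4.87-fold, was not tested. The endothelial list summed to 1.44 and 1.66, and PECAM1 met the threshold on the lower side after miR-210-3p and after miR-874-3p, in each case between arrays on which its tested probe was not well above background, so that no fold is given. The part of these in the MMP12 value was not tested.

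The gelatinases cut denatured collagen and basement membrane collagen. MMP2 (chr16:55540518-55540577) read -1.49 and -1.43 after miR-629-3p, -2.09 and -1.99 after miR-210-3p, -1.84 and -1.52 after miR-874-3p, and -1.39 and -1.45 with NC. The miR-210-3p arrays were again the lowest of the 8. They lay 1.30 and 1.42 above the dimmest detected signal of their arrays, and the NC arrays 1.45 and 1.37 above theirs. Probes detected on no array had a median log2 difference from NC of -0.55 after miR-210-3p. The part of that shift in the MMP2 value was not tested. The log2 fold change after miR-210-3p was -0.62 (SE 0.12, adjusted p = 0.0451, limma), which is 1.54-fold and below the 2-fold threshold of the study. At an adjusted p under 0.05 and any fold, MMP2 was the 1 gene of the 8 in this comparison, beside 6.05% of all genes tested. Within row 1, MMP2 was 0.58 higher after miR-629-3p than after miR-210-3p (adjusted p = 0.0238). After miR-629-3p it differed from NC by -0.04 (95% confidence interval -0.33 to 0.26), and after miR-874-3p by -0.25 (-0.55 to 0.04). Normexp background correction reduced the value after miR-210-3p to -0.16 (adjusted p = 0.114). The other alternatives left it between -0.67 and -0.57, while the adjusted p was under 0.05 in 5 of 20 alternatives and ranged from 0.022 to 0.18.

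MMP9 (chr20:44645121-44645180) read -0.45 and -0.30 after miR-629-3p, -0.23 and -0.46 after miR-210-3p, -0.15 and 0.13 after miR-874-3p, and -0.34 and -0.56 with NC. Both miR-874-3p arrays lay above the other 6, by 0.44 over NC within slide row 2 (SE 0.15, unadjusted p = 0.0254, adjusted p = 0.235, limma). The values for miR-629-3p (0.08) and miR-210-3p (0.10) had 95% confidence intervals of -0.28 to 0.44 and -0.26 to 0.47.

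MMP14, the membrane-type metalloproteinase that activates pro-MMP2 at the cell surface together with TIMP2, was measured at chr14:23315791-23315850. It read 5.58 and 5.05 after miR-629-3p, 4.95 and 4.80 after miR-210-3p, 4.71 and 4.93 after miR-874-3p, and 4.79 and 5.05 with NC. Only miR-629-3p replicate 1 stood clear of the other arrays. The log2 fold changes against NC were 0.39 for miR-629-3p, -0.05 for miR-210-3p and -0.10 for miR-874-3p, with 95% confidence intervals of -0.11 to 0.89, -0.55 to 0.45 and -0.60 to 0.40, which leave room for changes of under 2-fold in either direction.

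TIMP1, a secreted inhibitor of most of these enzymes, had the narrowest range over the 8 arrays of these 10 genes. The probe (chrX:47444666-47444725) read 2.93 and 3.07 after miR-629-3p, 2.89 and 2.93 after miR-210-3p, 3.06 and 2.94 after miR-874-3p, and 3.04 and 3.19 with NC. The log2 fold changes were -0.11 (95% confidence interval -0.35 to 0.12), -0.21 (-0.44 to 0.02) and -0.12 (-0.35 to 0.11), and none passed the threshold.

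**Figure D2:**
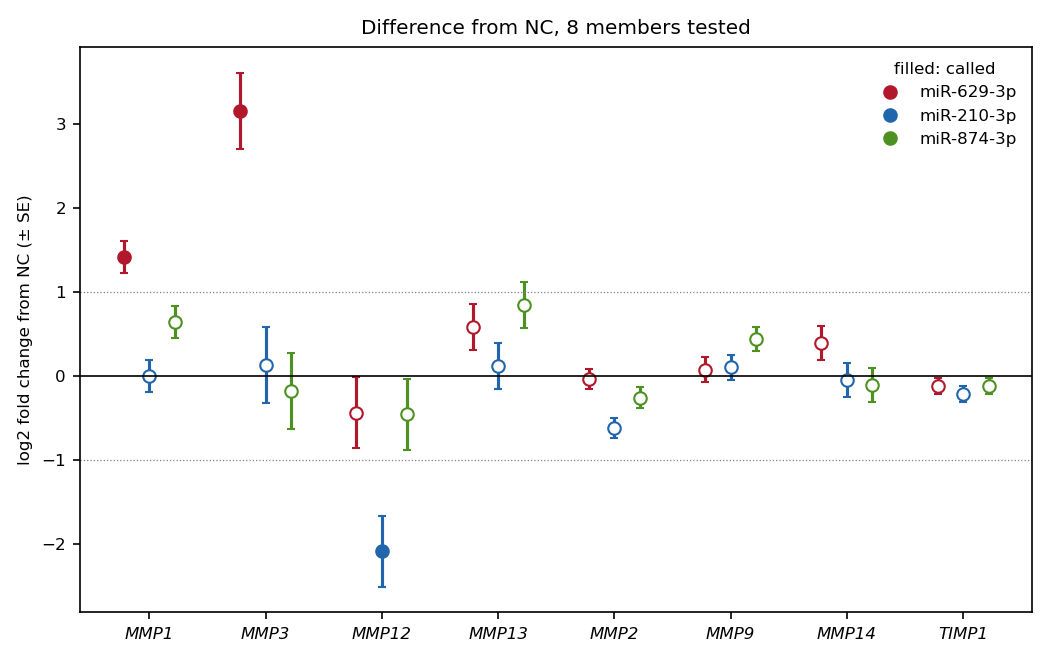
Log2 fold change from NC (vertical axis; error bars are the SE from limma) of the 8 genes tested, for each miRNA (colours). Filled points passed the study's threshold and dotted lines mark 2-fold. MMP1 (1.41) and MMP3 (3.16) after miR-629-3p and MMP12 (-2.08) after miR-210-3p are the filled points.

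Direct comparisons of the miRNAs gave 5 calls among the 8 genes, given above with each gene. MMP1, MMP3 and MMP12 were higher after miR-629-3p than after miR-210-3p (3 genes, all with an adjusted p under 0.05), a comparison in which 5.61% of all genes were called and 3.20% were higher, and 4.65% were called with an adjusted p under 0.05. The median of the 8 genes there was 0.53, beside -0.02 for all genes tested. MMP13, which passed the filter only through the miR-629-3p arrays, counts in this median too. MMP3 was the 1 gene called between miR-629-3p and miR-874-3p (5.14% of all genes), and MMP12 the 1 gene called between miR-210-3p and miR-874-3p (3.76%). The 4 genes called in the F test had no full order of the 4 groups in common. All 4 were higher after miR-629-3p than after miR-210-3p at an adjusted p under 0.05 and any fold (limma). At that threshold 4802 of the 21283 genes tested differed between these miRNAs, in either direction. The 4 genes were picked by an F test on the same arrays, so their shared direction is a description and not a further test. NC and miR-210-3p were the lowest groups for MMP1 and could not be parted. For MMP3 the 3 groups below miR-629-3p were not called against each other, and for MMP12 and MMP2 miR-210-3p alone was lowest.

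MMP7, MMP10, MMP1, MMP3, MMP12 and MMP13 lie in one cluster on chromosome 11, where their probes span 420 kb (chr11:102394029-102813832, hg19). Within the cluster MMP1 and MMP3 are adjacent, and both rose after miR-629-3p. MMP12, the next gene, had a log2 fold change of -0.44 after miR-629-3p that was not called. Of the 8 genes in the list of neighbours, WTAPP1 lies inside the cluster and the others flank it. Of these neighbours, 6 were tested and none passed the study's threshold by limma or by the methods' t-test with any of the miRNAs. For miR-629-3p, then miR-210-3p, then miR-874-3p, 3, 3 and 0 had an unadjusted limma p under 0.05. The share of all genes at that p was 16.4% after miR-874-3p and is not given for the others. These unadjusted counts are therefore not read as a result. At an adjusted p under 0.05 and any fold the counts of neighbours were 2, 1 and 0, beside 3565, 1288 and 90 of all 21283 genes tested. At less than 2-fold, BIRC3, an inhibitor of apoptosis in the NF-kB pathway, rose by 0.80 after miR-629-3p (adjusted p = 0.0135, limma) and by 0.78 after miR-210-3p (adjusted p = 0.026), and YAP1, a Hippo pathway coactivator, rose by 0.28 after miR-629-3p (adjusted p = 0.0364). After miR-874-3p, in the same slide row as NC, BIRC3 differed from NC by 0.07. For BIRC3 the slide row and the miRNA therefore cannot be told apart.

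**Figure D3:**
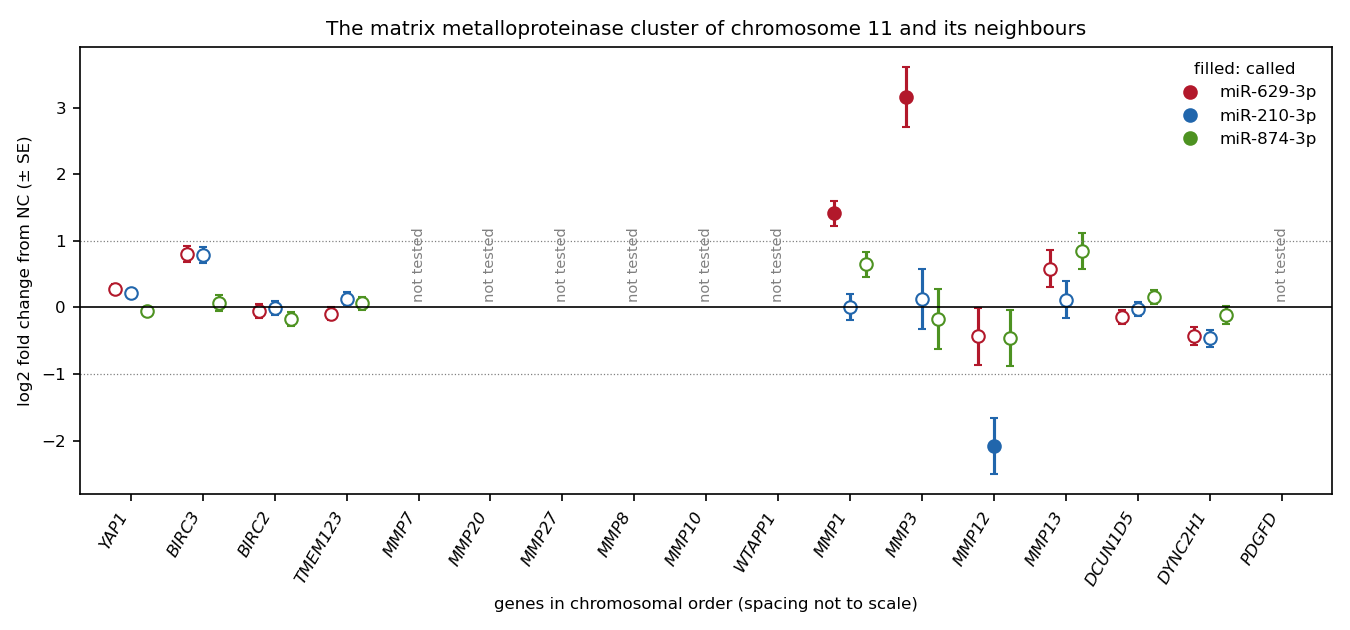
Log2 fold change from NC (vertical axis; error bars are the SE from limma) for 17 genes of the chromosome 11 cluster and its flanks in chromosomal order (horizontal axis, spacing not to scale). Filled points passed the study's threshold. MMP1 and MMP3 after miR-629-3p and MMP12 after miR-210-3p are filled, and BIRC3 reached 0.80 and 0.78 without passing 2-fold.

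The genes whose signals ran most like those of the 4 genes called in the F test are given as a description over the 8 arrays, which share the group structure. For MMP1 they were FLJ46120, NEURL3 and LAMP3 (Pearson r = 0.995, 0.985 and 0.983), and for MMP3 they included INIP and FIGN (0.994 and 0.992). For MMP12 they were ZNF480, PIEZO1 and JAG2 (0.993, 0.986 and 0.971), and for MMP2 they were WASH1, SLC27A3 and CST5 (0.981 each). No other metalloproteinase was among them. The correlation between MMP1 and MMP3 themselves was 0.855, and that between MMP2 and MMP12 was 0.853.

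The rest of the system was read from lists of related genes. Of 14 other MMPs on the array, 6 were tested and none passed the study's threshold by limma or by the methods' t-test with any miRNA. In each comparison 1 had an unadjusted limma p under 0.05, and 0 had an adjusted p under 0.05 at any fold. Of all genes tested, 16.4% had such an unadjusted p after miR-874-3p, and the share for the other miRNAs is not given here. The medians of the other MMPs were -0.07, 0.03 and 0.06 for miR-629-3p, then miR-210-3p, then miR-874-3p, the order used for the medians of the further lists too. Of 6 other inhibitors, 5 were tested. After miR-629-3p, TIMP4 rose by 1.17 (SE 0.10, adjusted p = 0.00537) and A2M, alpha-2-macroglobulin, a general protease trap, fell by 1.02 (SE 0.24, adjusted p = 0.0414). TIMP2 rose by 0.52 (adjusted p = 0.0447), which is under 2-fold. With each of the other 2 miRNAs, 0 inhibitors were called by limma or by the methods' t-test. In each case 2 had an unadjusted limma p under 0.05, and 0 had an adjusted p under 0.05 at any fold. TIMP4 read 3.49 and 3.28 after miR-629-3p and between 2.03 and 2.33 on the other 6 arrays, so that its arrays stood apart as those of MMP3 did. Unlike TIMP4, A2M was also lower on the miR-210-3p arrays (-1.21 and -1.35) than after NC (-0.43 and -0.31), without passing 2-fold. After miR-874-3p, in the slide row of NC, it read -0.13 and 0.61. Both groups with the lower A2M fill slide row 1, so for A2M the row and the miRNA cannot be told apart.

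Among 9 activators and partners, all tested, PLAT, tissue plasminogen activator, which makes plasmin and so lies upstream of proMMP activation, rose by 1.07 after miR-210-3p (SE 0.18, adjusted p = 0.0354). It read 2.93 and 2.82 there and between 1.45 and 2.17 on the other 6 arrays. LCN2, the lipocalin that binds MMP9, was well above background on the 2 miR-874-3p arrays only, at -2.69 and -1.95. It was at least 1.42-fold higher there than after NC, a bound that was not tested. The fitted log2 value of LCN2 was 1.65 (adjusted p = 0.183, limma), from NC readings of -4.46 and -3.47 that were not well above background. LCN2 passed the filter only through the miR-874-3p arrays, so this positive value was largely set by the filter. Its fitted values were also called lower after miR-629-3p and miR-210-3p, but neither those groups nor NC measured it, so no fold is given. The medians of this list were -0.32, 0.07 and 0.08.

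Among 17 AP-1, ETS and other regulators, 1 was called in each of the comparisons of miR-629-3p and miR-210-3p with NC, and 0 after miR-874-3p by limma or by the methods' t-test (1 at an unadjusted p under 0.05). FOSB, an AP-1 subunit, was measured on the 4 arrays of slide row 1 and on no other. FOSB was at least 1.15-fold higher after miR-210-3p than after NC, a bound that was not tested. The fitted log2 value was 1.18 (adjusted p = 0.0105, limma), from NC readings of -3.74 and -3.86 that were not well above background. FOSB passed the filter only through the arrays of row 1, so this positive value was largely set by the filter. ETV1, an ETS factor, had a fitted log2 fold change of -1.74 after miR-629-3p (adjusted p = 0.122) from NC arrays at -2.35 and -0.38 and 1 miR-629-3p array of 2 that measured it, and another of its probes gave 0.35. The medians of the regulators were 0.03, 0.17 and 0.04. Of 15 related ADAM and ADAMTS proteases, 10 were tested. ADAMTS6 rose by 2.19 after miR-629-3p (SE 0.10, adjusted p = 0.000963), and a further probe of it gave 1.69. ADAM19 rose by 1.36 after miR-210-3p (SE 0.22, adjusted p = 0.0301) and fell by 1.04 after miR-874-3p at the study's threshold (adjusted p = 0.122). In this list 1 gene was called with each miRNA, and the medians were 0.25, 0.18 and -0.12.

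**Figure D4:**
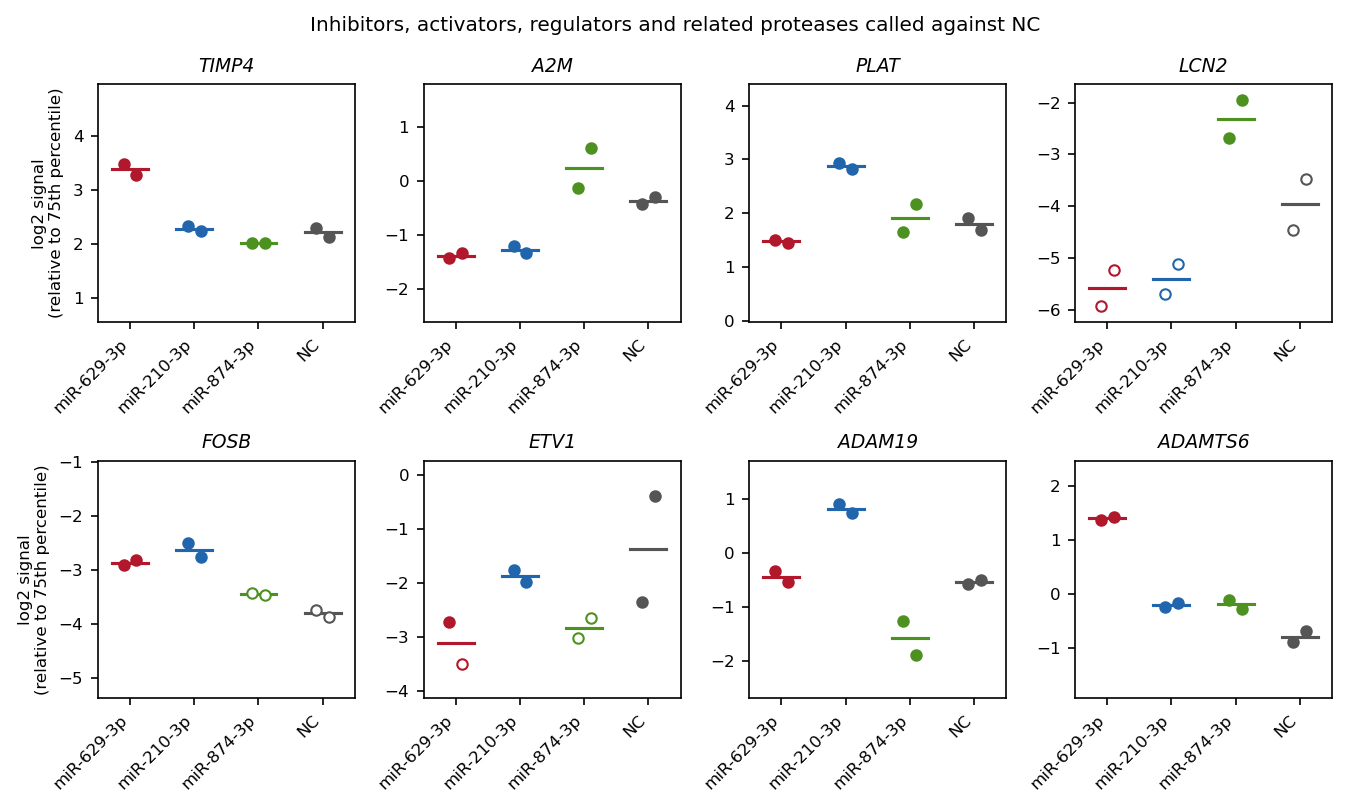
Log2 signal relative to the array's 75th percentile (vertical axis) on each array, by group (horizontal axis), of the 8 listed inhibitors, activators, regulators and related proteases called against NC with any miRNA. Points are arrays, bars are group means, and open points were not well above background. TIMP4 and ADAMTS6 were highest after miR-629-3p, PLAT and ADAM19 after miR-210-3p, and LCN2 was measured after miR-874-3p only.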

How the data were processed

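For each of 8 arrays, the authors deposited Agilent Feature Extraction output (11.5.1.1 in the submitters' processing notes), whose intensity values are background-subtracted processed signals with flags, not normalized between arrays. They also deposited a table of log2 values that, after a constant offset of -0.0488 to 0.00394 per array, lay within 0.05 of log2 signal minus the 75th percentile for all probes (column medians -3.68 to -3.36), and it served as an alternative. From the processed signals, log2 minus each array's 75th percentile over 58201 gene probes was taken, after leaving out control spots and 87 to 346 outlier-flagged spots per array, and spots of a probe were averaged. A probe was kept where, in 1 group or more, both arrays were well above background, and the brightest probe of a gene name was used (21283 of 43317 names). The arrays' number limits the precision.

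Groups follow the sample labels. The comparisons used limma 3.58.1 (lmFit, eBayes; R 4.3.3) with all 8 arrays in a single fit, no covariates, and 4 residual and 1.68 prior degrees of freedom. P-values were adjusted by Benjamini-Hochberg across the genes tested, and the fit was tested on simulated data. The study's methods name Student's t-test and ANOVA without naming the test behind its array counts, and both were run as alternatives, called the methods' t-test here. Gene order and miRNA sequences are from RefSeq (GRCh38.p14), and probe coordinates are from the array's annotation (hg19). The text names all 10 genes, the genes of the lists of related genes (not the marker lists) called against NC, and the 3 genes most correlated with each of the 10 that the F test called, of which 1 is not reported here. TIMP2, BIRC3, YAP1 and single marker genes were added after their values were seen. The 10 genes and all lists were chosen with earlier results of these data known. Promoters, proteins and transcripts of these genes were not used here. A block for the slide was not possible, because all arrays lie on 1 slide with 1 scan. The alternatives were normexp (offset 50), quantile scaling, median centring, the deposited log2 values, outlier spots included, a signal floor, looser and stricter detection filters, a trended prior, fits of only the groups compared, a replicate block, a stricter call, all probes, and fits leaving out single arrays.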

Additional observations from a re-analysis of the deposited data

How the results depend on the processing

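With all arrays, the 3 comparisons with NC of each of the 8 genes gave the same direction and the same side of the threshold in 277 recomputed values. In 6 the sign differed and the gene was called in neither. In 2 a call was lost, both for MMP12 with miR-210-3p, with normexp (-0.70) and with the methods' t-test. No called value reversed. The count of genes called in the F test, 4, fell to 2 with normexp, to 2 with a replicate block, to 1 with the methods' ANOVA and to 0 at a stricter adjusted p under 0.01. The count with miR-210-3p, 1, fell to 0 with normexp, with the methods' t-test and with the stricter call, which also asks for an adjusted p under 0.05. The 5 direct calls fell to 3 with normexp. Leaving out each array in turn gave 0 to 3 genes for the F test, 2 to 3 for miR-629-3p, 1 to 1 for miR-210-3p, 0 to 2 for miR-874-3p and 4 to 7 for the direct comparisons, which takes a lone array to have the spread of the other groups. These single-array fits gave 172 values unchanged in call, 16 with another sign and no call, and 4 new calls. The cause of these shifts was not tested. No scaling moved the median of all genes by over 0.1. Same-numbered arrays did not deviate together (correlations from -0.106 to 0.034), so the numbers do not pair the arrays, and the block changed no other count by over 1.5 times. With the NC numbers crossed against miR-874-3p, chosen after seeing the data, 405 genes in place of 429 were called, 0 of them among the 8. Signal over background limits MMP13, MMP10, MMP7 and, with miR-210-3p, MMP12 and MMP2.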
